A study of Mus musculus with 22 samples.

Results

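The 48 genes described here encode the kinetochore, the centromeric chromatin beneath it and the checkpoint that reads its attachment to the spindle. They were chosen by name, and all 48 were found among the 11208 genes of the table and passed the filter on low values. They comprised the NDC80 (4 genes), KNL1 (2), MIS12 (4) and SKA (3) complexes, the constitutive centromere network (13), CENP-A and its loading factors (4), the corona proteins Cenpe and Cenpf (2), the checkpoint proteins proper (6), the RZZ complex with Spindly (4), the chromosomal passenger complex (4) and the shugoshins (2). RNA was measured in NIH/3T3 cells, a mouse embryonic fibroblast line, in which doxycycline switches on an integrated construct. In one line the construct encodes E2F1, a transcription factor of the cell cycle (E2F1 line), and in the other it is an empty vector (EV line). Whether a line was 1 clone or a pool, and the species of the E2F1 insert, are not given in the sources used here. Every library came from cells starved for 48 h in 0.25% serum. The E2F1 line was sampled at 0, 2, 6 and 12 h of 500 ng/ml doxycycline, the EV line likewise, and the EV line also at 2, 6 and 12 h of 10% serum, with 2 libraries in each of the 11 groups. Serum had no 0 h libraries of its own, so its changes were taken from the EV line at 0 h. The study asked which genes E2F1 controls when cells re-enter the cycle from quiescence.

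The kinetochore is the protein assembly that joins a chromosome to spindle microtubules. It is built on nucleosomes that hold CENP-A, the centromeric variant of histone H3, through the constitutive centromere network, and its outer KNL1, MIS12 and NDC80 complexes bind the microtubule. Unattached kinetochores hold checkpoint proteins that delay anaphase, and the passenger complex, with the kinase Aurora B, releases faulty attachments. In cycling cells many of these transcripts are low in quiescence and peak in G2 and mitosis, through promoters that carry a CHR element, the site of the DREAM and MuvB complexes, while E2F sites are typical of genes that rise at the entry into S phase.

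In the E2F1 line nearly the whole apparatus rose together between 6 and 12 h of doxycycline. Summed over the 48 genes, the level was 58436 and 56088 normalized counts in the 2 libraries at 0 h, 58100 and 65605 at 2 h, 91944 and 79884 at 6 h, and 220828 and 222065 at 12 h. At 12 h 47 of the 48 genes were called higher and none lower (a call is an adjusted p of at most 0.05 in limma), where 31.8% of all genes tested were called higher. The median log2 change of the 48 genes at 12 h was 2.13, against -0.02 over all genes. For all 48 genes the 12 h libraries lay above the 0 h libraries with no overlap, as they did for 40.2% of the table. Zwint, which links KNL1 to the RZZ complex, was the gene not called.

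By the calls the rise began before 12 h for part of the set. At 2 h no member was called, with 1.86% of all genes called in either direction, and 3 of the 48 had an unadjusted p under 0.05. At 6 h 27 members were called higher and none lower, with 28.8% of all genes called higher, and the median log2 change of the 48 was 0.67. Between 6 and 12 h all 48 members were called higher, with 15.1% of all genes, and the median step was 1.44. The 6 h count is the least firm of these, since it was 10 without E2F1 6 h replicate 1, 12 without E2F1 0 h replicate 2 and 14 without E2F1 0 h replicate 1. In bulk RNA a larger share of cycling cells and more RNA per cycling cell cannot be told apart, here and in every result below.

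**Figure D1:**
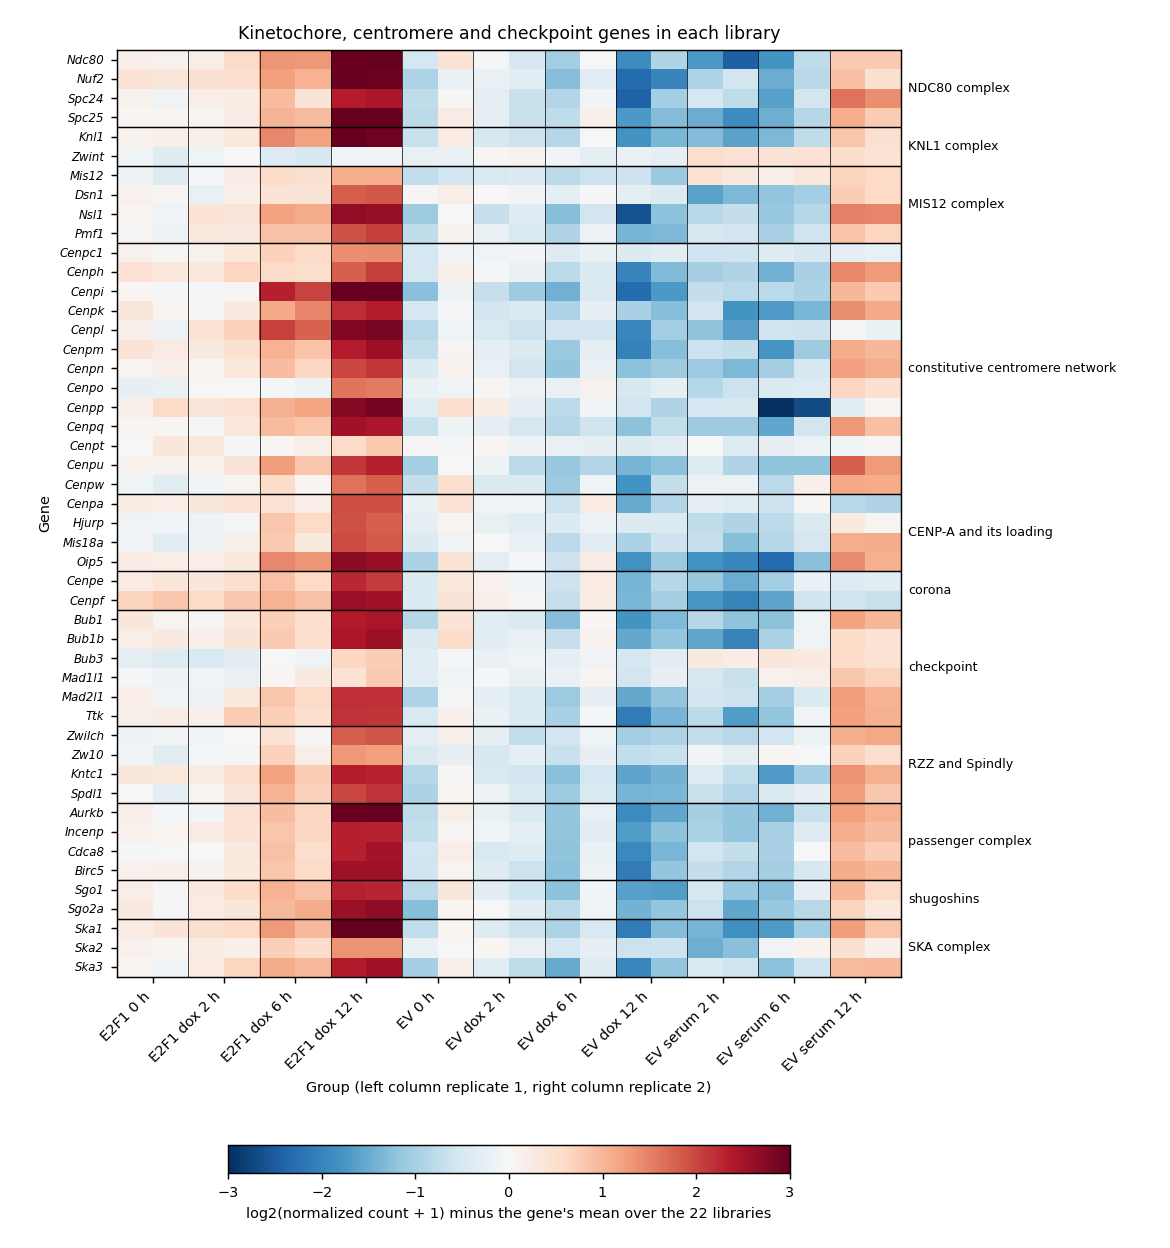
Level of each of the 48 genes (rows, grouped by role) in each of the 22 libraries (columns, in pairs by group), as log2(normalized count + 1) minus the gene's mean over the libraries, with red above and blue below that mean. The E2F1 12 h libraries are the reddest pair in nearly every row, the EV 12 h libraries are blue, Zwint is the row that is highest under serum, and in the EV line at 0 and 6 h the left column is bluer than the right.

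In the EV line under the same doxycycline the genes did not rise. Summed levels were 40120 and 58704 normalized counts at 0 h, 49561 and 46648 at 2 h, 36046 and 50133 at 6 h, and 28705 and 32397 at 12 h. No member was called at 2 h, where 7.35% of all genes were, or at 6 h, where 0.134% were, and 2 and 1 of them had an unadjusted p under 0.05. At 12 h 25 members were called lower and none higher, with 3.42% of all genes called lower, and the median log2 change was -1.08. That count rests on single libraries. It was 0 without EV 0 h replicate 2, 0 without EV 12 h replicate 1 and 36 without EV 0 h replicate 1, although all 48 estimates were below 0. The difference between the lines in the change from 0 h was called higher in the E2F1 line for 25 members at 6 h, with 22.2% of all genes, and for 47 at 12 h, with 27.3%. The 6 h count ran from 5 without EV 6 h replicate 1, 6 without EV 0 h replicate 2, 9 without E2F1 6 h replicate 1 and 12 without E2F1 0 h replicate 2 to 39 without EV 0 h replicate 1, while the 12 h count was 47 whichever library was left out.

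Under serum, the broader stimulus, most of the genes were higher at 12 h, after a lower level at 2 h for part of them. At 2 h of serum 24 members were called lower and 3 higher, where 33.5% of all genes were called lower and 37.5% higher. At 6 h 16 were called lower and 5 higher, so the members' share called lower was near that of all genes, 31.0%, and their share called higher was below the 36.5% of all genes. The median log2 change of the members was -0.59 at 2 h and -0.48 at 6 h, against 0.03 over all genes at either time. At 6 h with libraries scaled to equal totals the split of the members was 30 lower and 3 higher. The calls over all genes at 6 h shifted as well under that scaling, from 3470 lower and 4093 higher to 4772 and 2914. The median of all genes was then -0.18. Without that scaling, the members called higher were Zwint, Mis12 and Bub3 at 2 h, joined by Mad1l1 and Zw10 at 6 h. At 12 h 38 members were called higher and 1, Cenpa, lower, where 36.0% and 29.7% of all genes were, and the median log2 change was 1.21. Between 6 and 12 h of serum 39 members were called higher, with 19.3% of all genes, and none lower. Set against EV doxycycline 12 h in place of EV 0 h, a reference added after the data were seen, serum at 12 h had 43 members called higher, with 37.9% of all genes, and none lower. The counts at 2 and 6 h rest in part on EV 0 h replicate 2: without it 16 members were called at 2 h and 11 at 6 h, and 8 were called at 6 h without EV serum 6 h replicate 1, against 37 at either time without EV 0 h replicate 1.

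The replicates differed in these genes more than in the table at large, and by most in 4 of the 7 EV groups. That bears on every value taken from EV 0 h. At EV 0 h replicate 2 lay above replicate 1 for 47 of the 48 genes, against 51.9% of all genes, with a median log2 difference of 0.79 for the members and 0.01 for the table. The corresponding medians for the members were 0.73 in the EV line at 6 h of doxycycline, 0.36 at 12 h and 0.55 at 6 h of serum. They were -0.18 at 2 h of doxycycline, -0.17 at 2 h of serum and -0.17 at 12 h of serum in the EV line, and between -0.20 and 0.19 in the 4 groups of the E2F1 line. Small shifts were shared there too: replicate 2 was higher for 42 members at E2F1 2 h and for 6 at E2F1 6 h. A list of 16 G2/M genes moved alike, with medians of 0.91, 0.95, 0.55 and 0.85 in those 4 groups of the EV line. Whether the libraries of a group differed in how far the cells had stopped cycling was not tested.

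**Figure D2:**
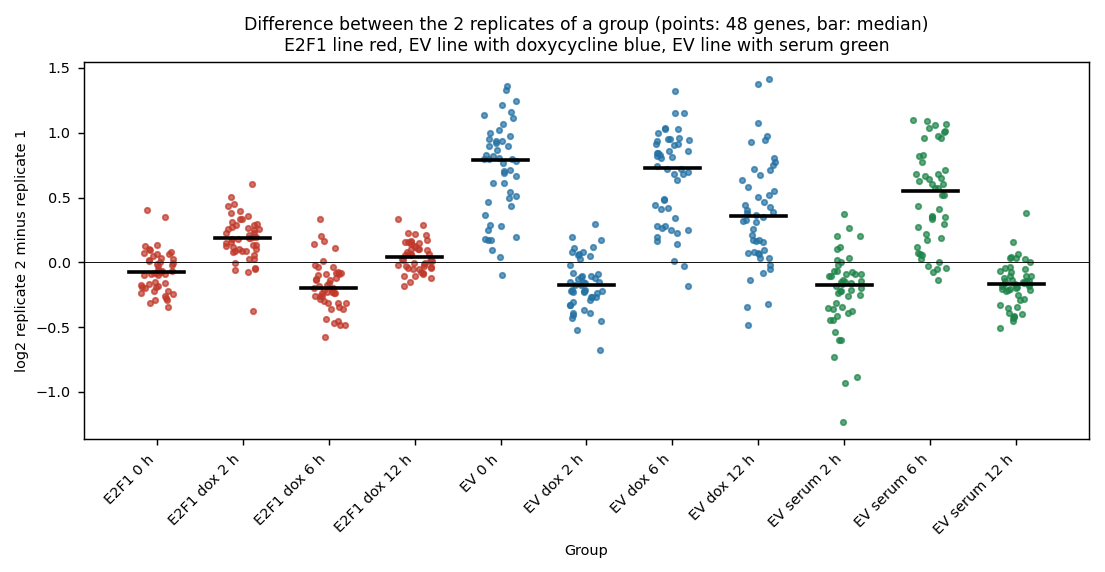
Difference between the 2 replicates of each group, as log2(normalized count + 1) of replicate 2 minus replicate 1; each point is 1 of the 48 genes and the bar is their median. The median is 0.79 in the EV line at 0 h and 0.73 at 6 h of doxycycline, and lies within 0.20 of 0 in every E2F1 group.

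Facts of the whole series that touch these results are few. Normalized counts per library summed to between 34014608 and 46057140, and in 9 of the 22 libraries the pattern of low values gave the number of reads on these genes, from about 30500000 to about 43100000. E2f1 itself stood at 1703 and 1637 normalized counts at 0 h in the E2F1 line, 1535 and 1755 at 2 h, 3806 and 3602 at 6 h and 2683 and 2845 at 12 h, and between 1307 and 1655 in the EV line under doxycycline. Under serum E2f1 had 802 and 740 at 2 h, 1186 and 956 at 6 h, and 4615 and 4247 at 12 h. The counts of this mouse gene were therefore highest in the 12 h serum libraries. With the species of the insert not given, these counts may leave out the insert's RNA. They do not rank the lines by all the E2F1 RNA they held. All 11 fibroblast markers sought were in the table (Col1a1 at 91191 normalized counts or more in every library), none of the 11 epithelial, endothelial and muscle markers was, and of 4 leukocyte markers Csf1r was present, at 33 to 735. The Y-linked gene Ddx3y separated the lines at 0 h, with 580 and 521 normalized counts in the E2F1 line against 9 and 4 in the other, but the EV libraries labelled 2 h had 103 and 71 under doxycycline and 132 and 170 under serum. For 16 genes with 8-fold or more RNA in the E2F1 line at 0 h the median was 606 and 777 there, 31 and 26 in the EV line, and 149 and 178 in the EV line at 2 h of serum. The part of this in the 2 h results was not tested; without the EV 2 h doxycycline libraries 25 members were called at E2F1 6 h, 47 at E2F1 12 h and 39 at serum 12 h, and the 2 h serum counts have no value without their own libraries. In the annotation 20 of the 48 genes overlap another gene, among them Mis12 with Derl2, Cenpk with Ppwd1, Cenpu with Primpol and Ska3 with Sap18, and the use of strand in counting is not given in the sources used here, so their counts are uncertain to that extent. Nothing in the labels says that the replicates were separate cultures, so p-values measure only the spread between these libraries, which may be technical.

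Promoters of 6 members are shown as examples of the letters searched for: Cenpl and Cenpm hold E2F-like letters, and Cenpa, Cenpf, Bub1 and Cdca8 hold CHR-like letters just after the RefSeq start. Cenpl and Cenpm hold CHR-like letters too, which begin 162 and 83 bases before the start, and Cenpm, unlike Cenpl, was not called at 6 h in the E2F1 line. Each stretch runs 5′ to 3′ on the gene's strand from 140 bases before to 25 bases after the RefSeq start (build GRCm38.p6), and capitals mark every E2F-like and CHR-like match in it. In GENCODE some of these genes start further upstream, among them Cdca8 (chr4:124939311) and Cenpm (chr15:82244748), so the distances hold for the RefSeq start only.
Cenpl (chr1:161070627-161070791, plus strand): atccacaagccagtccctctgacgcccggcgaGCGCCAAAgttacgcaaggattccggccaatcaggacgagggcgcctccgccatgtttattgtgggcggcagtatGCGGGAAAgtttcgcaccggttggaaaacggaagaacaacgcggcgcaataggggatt
Cenpm (chr15:82244312-82244476, minus strand): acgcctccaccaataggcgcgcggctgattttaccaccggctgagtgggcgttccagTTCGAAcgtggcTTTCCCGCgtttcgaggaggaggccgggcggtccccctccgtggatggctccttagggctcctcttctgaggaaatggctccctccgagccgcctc
Cenpa (chr5:30666746-30666910, plus strand): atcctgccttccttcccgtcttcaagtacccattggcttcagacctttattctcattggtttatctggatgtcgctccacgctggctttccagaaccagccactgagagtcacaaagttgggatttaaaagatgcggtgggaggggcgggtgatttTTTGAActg
Cenpf (chr1:189688062-189688226, minus strand): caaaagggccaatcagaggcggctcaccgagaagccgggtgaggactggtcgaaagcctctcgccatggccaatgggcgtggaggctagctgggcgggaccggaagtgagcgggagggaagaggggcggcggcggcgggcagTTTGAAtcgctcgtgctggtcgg
Bub1 (chr2:127831835-127831999, minus strand): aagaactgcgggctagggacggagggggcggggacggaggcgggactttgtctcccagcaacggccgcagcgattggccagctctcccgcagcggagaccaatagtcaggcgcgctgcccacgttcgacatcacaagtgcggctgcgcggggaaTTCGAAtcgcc
Cdca8 (chr4:124936893-124937057, minus strand): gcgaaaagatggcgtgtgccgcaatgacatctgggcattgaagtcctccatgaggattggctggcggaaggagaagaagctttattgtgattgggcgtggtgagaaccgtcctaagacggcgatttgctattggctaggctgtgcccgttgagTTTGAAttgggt
Windows from 250 bases before to 50 after the start were on hand for 42 of the 48 members and for 8609 genes of the table. The CHR-like letters TTTGAA or TTCGAA, on either strand, occurred in 23 of the 42 (54.8%) and in 16.2% of the table's windows. Within 50 bases of the start they occurred in 18 (42.9%), against 4.41%. The CCAAT box was in 29 windows (69.0%), against 44.0%. Exact E2F-like letters (TTTCCCGC, TTTGGCGC, TTTCGCGC or TTTGCCGC, either strand) were in 4 (9.52%), against 5.10%. In Cenpl the E2F-like matches GCGCCAAA and GCGGGAAA begin 108 and 33 bases before the start, and in Cenpm TTTCCCGC begins 71 bases before it. E2F-like letters were in 2 of 24 windows (8.33%) of the members called higher at 6 h in the E2F1 line and in 2 of 18 (11.1%) of those not called. Within 50 bases of the start the order was the other way, 2 of 24 (8.33%) against 0 of 18. These counts are too small to rank the sets. In all, E2F-like letters lay that near in 2 of the 42 members (4.76%), against 1.73% of the table's windows. The CHR-like share was 58.3% of the members called higher at 6 h in the E2F1 line and 50.0% of those not called, and 53.1% of those called higher at 12 h of serum and 60.0% of the others. A match is a string of letters and no site was measured.

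The gene with the widest contrast between the stimuli in the 12 h change from 0 h was Cenpa. Cenpa (ENSMUSG00000029177.9, chr5:30666777-30674830), the histone variant that marks the centromere, stood at 2583 and 2571 normalized counts at 0 h in the E2F1 line, 3026 and 2575 at 6 h, and 8495 and 8560 at 12 h. In the EV line it had 1943 and 2975 at 0 h, 780 and 1210 at 12 h of doxycycline, and 1246 and 1201 at 12 h of serum. Its 12 h libraries were the highest in the E2F1 line, while under serum both lay below both 0 h libraries. Its log2 change came to 1.73 (SE 0.25, adjusted p 1.05e-05) at 12 h of E2F1 and to -0.97 (SE 0.25, adjusted p 0.00235) at 12 h of serum, and the difference of 2.70 (SE 0.35, adjusted p 6.84e-06) was the largest among the 48. That rank did not hold with the 12 h groups set against each other and the 0 h libraries left out. The largest log2 difference was then 3.18, in the corona, and the largest among CENP-A and its loading genes was 2.80. The fall under serum depends on the reference: without EV 0 h replicate 2 it was -0.67 (adjusted p 0.0519), and against the EV line at 12 h of doxycycline the value was 0.33 (adjusted p 0.243).

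The other 3 loading genes differed from Cenpa. Oip5, a subunit of the MIS18 complex that licenses new CENP-A, had 216 and 207 normalized counts at 0 h in the E2F1 line, 496 and 457 at 6 h and 1192 and 1119 at 12 h, a 12 h log2 change of 2.44. Under serum it went from 94 and 243 at EV 0 h to 51 and 46 at 2 h and 485 and 380 at 12 h, a log2 change of -1.62 at 2 h and 1.50 at 12 h. Oip5 overlaps Nusap1, a spindle gene on the G2/M list, so reads of the pair could be mixed. Hjurp, the chaperone that deposits CENP-A, rose by a log2 change of 0.82 at 6 h and 1.95 at 12 h in the E2F1 line, and its value at 12 h of serum was 0.27 (adjusted p 0.0668). Against EV doxycycline 12 h, Hjurp was called higher at serum 12 h. Mis18a rose under both stimuli, by 2.12 at 12 h of E2F1 and 1.36 at 12 h of serum.

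**Figure D3:**
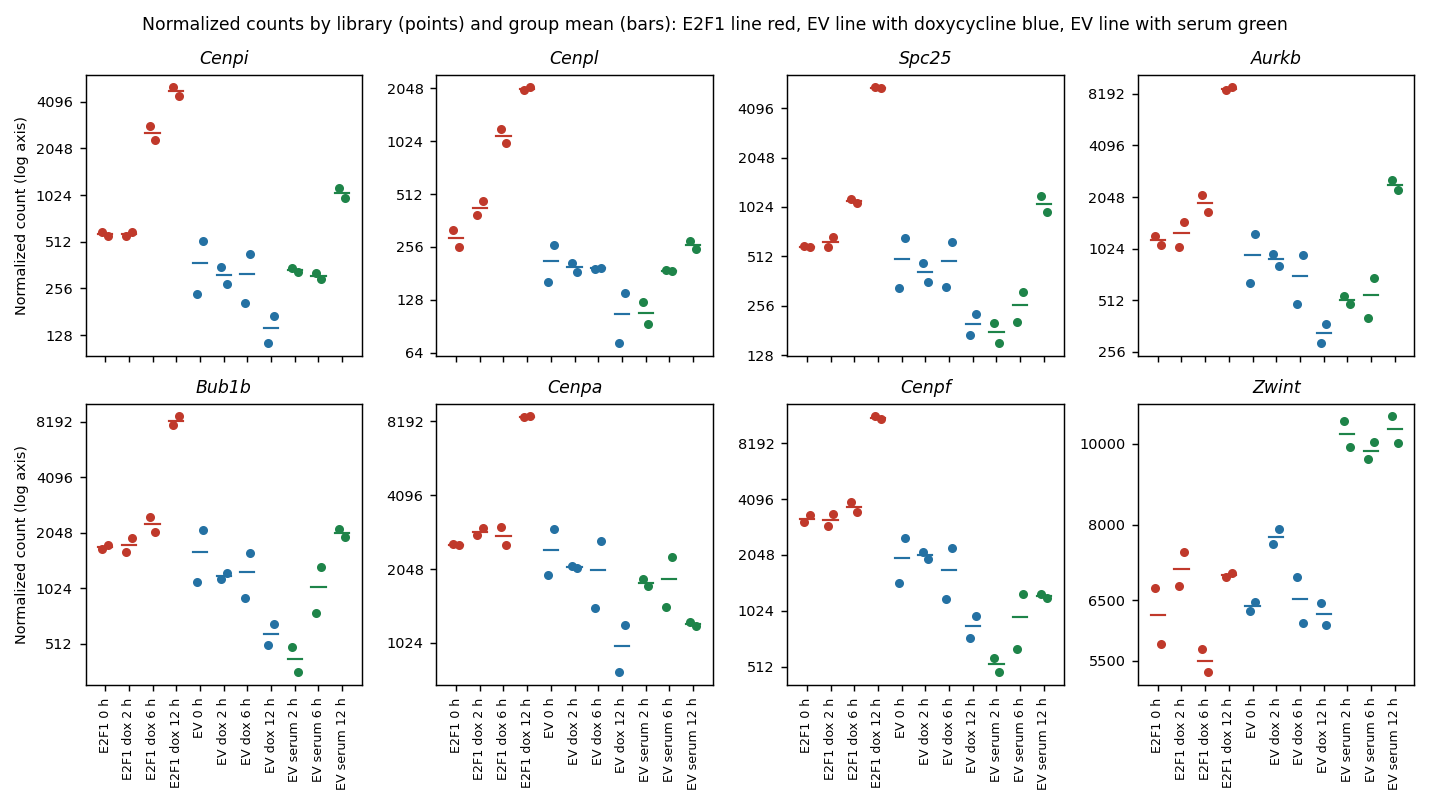
Normalized counts (log axis) of 8 genes in each library (points) with the group mean (bars); red is the E2F1 line, blue the EV line with doxycycline and green the EV line with serum. Cenpi and Cenpl are already high at E2F1 6 h, Cenpa and Cenpf are high at E2F1 12 h and not at 12 h of serum, and Zwint is highest in the serum groups.

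The constitutive centromere network held the 2 members with the largest 6 h values, Cenpi and Cenpl, and the called member with the smallest 12 h value, Cenpt. All 13 genes were called higher at 12 h in the E2F1 line (median log2 change 2.09, range 0.52 to 3.05), 7 were called at 6 h and 9 at 12 h of serum. Cenpi (ENSMUSG00000031262.12, chrX:134308084-134362639), which with Cenph, Cenpk and Cenpm forms a 4-gene branch of the network, had 593 and 556 normalized counts at E2F1 0 h, 558 and 594 at 2 h, 2861 and 2307 at 6 h and 5078 and 4479 at 12 h. Its log2 change was 2.16 (SE 0.30, adjusted p 1.15e-05) at 6 h and 3.05 (SE 0.30, adjusted p 1.22e-07) at 12 h, the largest at 6 h among the members. Under serum Cenpi went from 237 and 515 at EV 0 h to 1141 and 977 at 12 h, a log2 change of 1.59. The partners of Cenpi did not share its 6 h value. Cenpk was called at 6 h (1.09), while Cenph (0.17) and Cenpm (0.62) were not, and at 12 h the log2 changes of these 3 were 2.09, 1.56 and 2.14.

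Cenpl (ENSMUSG00000026708.16, chr1:161070713-161086724), which pairs with Cenpn to read CENP-A, was the other early gene. It had 318 and 256 normalized counts at E2F1 0 h, 387 and 465 at 2 h, 1191 and 992 at 6 h and 1994 and 2068 at 12 h. The log2 change was 1.93 (SE 0.26, adjusted p 6.68e-06) at 6 h and 2.83 (SE 0.26) at 12 h. Under serum its libraries held 162 and 264 at EV 0 h, 124 and 93 at 2 h, 190 and 186 at 6 h, and 277 and 250 at 12 h, so the 0 h and 12 h groups overlapped, and the 12 h value was 0.35 (adjusted p 0.247). The serum value depends on the reference: it was 0.70 (adjusted p 0.0462) without EV 0 h replicate 2 and 1.37 against EV doxycycline 12 h. The E2F1 minus serum difference was 2.48 (SE 0.37, adjusted p 2.49e-05). Cenpn, its partner, rose under both, by 1.94 and 1.29 at 12 h.

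Cenpp and its partners in the CENP-O group also separated under serum. Cenpp (ENSMUSG00000021391.10, chr13:49464023-49652785) had 123 and 163 normalized counts at E2F1 0 h, 231 and 250 at 6 h and 745 and 799 at 12 h, a log2 change of 2.44 (SE 0.33). Under serum it went from 87 and 155 at EV 0 h to 76 and 78 at 2 h, 10 and 16 at 6 h and 88 and 115 at 12 h. The 6 h value, -3.10 (SE 0.33, adjusted p 1.57e-07), was the largest fall of any member in the series, and the authors' deposited table gives -3.17 for it. By 12 h of serum the libraries overlapped those of 0 h (-0.21, adjusted p 0.594), and the E2F1 minus serum difference was 2.64. Cenpp spans several other genes (Ippk, Ecm2, Aspn, Omd and Ogn), so its counts may hold reads of these. Cenpo, Cenpq and Cenpu, the members that act with it, were called higher at 12 h of serum by 0.71, 1.50 and 2.04. Cenpu was the highest of all members there.

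Cenpt, which carries NDC80 to the inner kinetochore, changed least among the called genes. It had 718 and 915 normalized counts at E2F1 0 h, 746 and 834 at 6 h and 1077 and 1252 at 12 h, a rise of 0.52 on the log2 scale (SE 0.15, adjusted p 0.00701), and 738 and 691 at EV 0 h against 660 and 737 at 12 h of serum. Cenpw, its partner in a histone-fold pair, moved more, by 1.94 at 12 h of E2F1 and 1.26 at 12 h of serum. Cenpc1, which joins CENP-A chromatin to the MIS12 complex, rose by 0.56 at 6 h and 1.33 at 12 h in the E2F1 line and had a value of 0.07 (adjusted p 0.623) at 12 h of serum.

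Of the outer kinetochore complexes NDC80 had the largest values at 12 h. The 4 NDC80 genes had a median log2 change of 2.72 in the E2F1 line, the highest of the 11 roles, and 1.21 under serum, while in the E2F1 line the medians of MIS12 and KNL1 were 1.90 and 1.49. Spc25 (ENSMUSG00000005233.16, chr2:69193895-69206194), which with Spc24 anchors NDC80 to the inner kinetochore, had 591 and 582 normalized counts at E2F1 0 h, 1151 and 1087 at 6 h and 5484 and 5421 at 12 h. Its log2 change of 3.21 (SE 0.30, adjusted p 5.22e-08), 9.28-fold, was the largest of all members. In the EV line Spc25 went from 327 and 665 at 0 h to 200 and 152 at 2 h of serum and 1192 and 949 at 12 h, a log2 change of -1.41 and then 1.19. Spc24 had 534 and 465 at E2F1 0 h, 971 and 650 at 6 h and 2563 and 2676 at 12 h, the smallest 12 h change of this complex at 2.39, and rose from 294 and 511 to 1539 and 1326 at 12 h of serum, 1.88. Spc24 was the NDC80 gene whose changes under the 2 stimuli did not differ by the test (difference 0.51, adjusted p 0.465).

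Ndc80, the subunit that binds the microtubule, had 920 and 913 normalized counts at E2F1 0 h, 2084 and 2050 at 6 h and 6490 and 7042 at 12 h. Its log2 change was 1.17 at 6 h and 2.88 (SE 0.38) at 12 h. Under serum it went from 574 and 1102 at EV 0 h to 251 and 151 at 2 h, 239 and 492 at 6 h and 1433 and 1436 at 12 h. That is a value of -2.02 at 2 h, the lowest of all members at that time, and 0.85 (adjusted p 0.0545) at 12 h. The 12 h value ran from 0.38 to 2.17 over the alternatives run. Against EV doxycycline 12 h all 4 NDC80 genes were called higher at serum 12 h. Nuf2, the partner of Ndc80, rose by 2.56 and 1.24 at 12 h of the 2 stimuli, and with Cenpc1 it was 1 of the 2 members called between the lines at 0 h, where 8.86% of all genes were higher in the E2F1 line (log2 difference 0.96, adjusted p 0.0225). That count was 0 without E2F1 0 h replicate 1, E2F1 0 h replicate 2 or EV 0 h replicate 1, and 12 without EV 0 h replicate 2.

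The 2 genes of the KNL1 complex took different courses. Knl1, the scaffold that binds the Bub proteins, had 1119 and 1194 normalized counts at E2F1 0 h, 2847 and 2415 at 6 h and 8466 and 7885 at 12 h, a 12 h log2 change of 2.82 (SE 0.27). Under serum it went from 655 and 1244 at EV 0 h to 1870 and 1428 at 12 h, 0.86 (adjusted p 0.0105). Zwint (ENSMUSG00000019923.14, chr10:72654845-72674964) had 6721 and 5769 at E2F1 0 h, 5677 and 5335 at 6 h and 6927 and 7006 at 12 h, and 6309 and 6479 at EV 0 h. At 2, 6 and 12 h of serum it had 10644 and 9909, 9601 and 10043, and 10788 and 10036. Zwint was therefore highest in all 6 serum libraries. Its log2 change was 0.16 (SE 0.08, adjusted p 0.103) at 12 h of E2F1, or -0.03 with quantile normalization, and 0.68, 0.62 and 0.70 at the 3 serum times. The E2F1 minus serum difference at 12 h was -0.54 (SE 0.12, adjusted p 0.00108), the single member called lower there.

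In the MIS12 complex, which joins the inner and outer kinetochore, all 4 genes were called higher at 12 h under both stimuli. Nsl1 had 396 and 348 normalized counts at E2F1 0 h, 853 and 803 at 6 h and 2363 and 2298 at 12 h, and went from 178 and 374 to 1056 and 1031 at 12 h of serum. Its log2 changes were 2.65 (SE 0.34) and 2.01 (SE 0.34), among the highest of the members under serum. Mis12 had 1391 and 1190 at E2F1 0 h, 2281 and 2154 at 6 h and 3297 and 3334 at 12 h. In the EV line it stood at 931 and 1051 at 0 h, and at 2093 and 1907, 1782 and 1937, and 2479 and 2368 at the 3 serum times. Mis12 was thus higher from 2 h of serum on (1.01 at 2 h, adjusted p 2.01e-06), and its 12 h changes of 1.36 and 1.29 differed by 0.07 (adjusted p 0.779, SE 0.19). Dsn1 took the other course, with -1.59 at 2 h and 0.56 at 12 h of serum against 1.74 at 12 h of E2F1.

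The corona proteins had values of the same form as Cenpa. Cenpe, a kinesin that carries chromosomes to the spindle equator, had 2890 and 3099 normalized counts at E2F1 0 h, 4489 and 3657 at 6 h and 11555 and 10407 at 12 h. Under serum it went from 1788 and 3038 at EV 0 h to 1106 and 859 at 2 h and 1864 and 1899 at 12 h. Cenpf (ENSMUSG00000026605.14, chr1:189640606-189688086), a large coiled-coil protein of the same layer, had 3072 and 3352 at E2F1 0 h, 3958 and 3502 at 6 h and 11410 and 11008 at 12 h. Both Cenpf libraries at 12 h of serum, 1264 and 1203, lay below both at EV 0 h, 1444 and 2515, and those at 2 h were lower still, 573 and 479. Neither gene was called at E2F1 6 h or at serum 12 h, where the values were -0.31 (adjusted p 0.332) for Cenpe and -0.63 (adjusted p 0.0601) for Cenpf. Against EV doxycycline 12 h these became 0.76 (adjusted p 0.0197) and 0.55 (adjusted p 0.0912). The E2F1 minus serum differences at 12 h were 2.18 (SE 0.39) and 2.43 (SE 0.40).

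All 6 checkpoint genes were called higher at 12 h in the E2F1 line and 5 of them at 12 h of serum. Bub1b, which blocks the anaphase-promoting complex as part of the mitotic checkpoint complex, had 1665 and 1745 normalized counts at E2F1 0 h, 2493 and 2076 at 6 h and 7866 and 8749 at 12 h, a 12 h log2 change of 2.28 (SE 0.29). It was the gene not called under serum: it went from 1099 and 2124 at EV 0 h to 490 and 359 at 2 h (-1.86) and 2132 and 1939 at 12 h (0.41, adjusted p 0.214). The 12 h value depends on the reference, and over the alternatives run it went from -0.06 to 1.83. Against EV doxycycline 12 h all 6 checkpoint genes were called higher at serum 12 h. Bub1, the kinase that marks centromeric chromatin, had 1201 and 1013 at E2F1 0 h and 4969 and 5185 at 12 h (2.20), and 531 and 1259 at EV 0 h against 2201 and 1905 at 12 h of serum (1.32). Both genes had all 12 h libraries above all 0 h libraries in the E2F1 line, and under serum those of Bub1b overlapped while those of Bub1 did not. Mad2l1, the protein that closes on Cdc20 when a kinetochore is unattached, had 1909 and 1579 at E2F1 0 h and 7642 and 7614 at 12 h (2.13), and 882 and 1644 at EV 0 h against 3983 and 3459 at 12 h of serum (1.62).

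Mad1l1, its platform at the kinetochore, was the flattest of this set. It had 1117 and 1060 normalized counts at E2F1 0 h, 1218 and 1405 at 6 h and 1589 and 2005 at 12 h, a rise of 0.71 on the log2 scale (SE 0.14, adjusted p 0.000229), and went from 920 and 1095 to 2066 and 1848 at 12 h of serum, 0.96 (SE 0.14). The difference of -0.25 (SE 0.20) was not called (adjusted p 0.319). Bub3, which carries Bub1 and Bub1b to the kinetochore, rose early under serum (0.42 at 2 h) and by 1.01 and 0.66 at 12 h of the 2 stimuli, and Ttk, the kinase that starts checkpoint signalling, by 1.96 and 1.30.

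The RZZ complex and Spindly bring dynein to kinetochores, and all 4 genes were called at 12 h under both stimuli. Spdl1 (Spindly) had 537 and 439 normalized counts at E2F1 0 h, 1113 and 876 at 6 h and 2169 and 2424 at 12 h (2.24), and went from 281 and 562 to 1288 and 956 at 12 h of serum (1.48). Zw10 had 949 and 806 at E2F1 0 h, 1631 and 1167 at 6 h and 2500 and 2367 at 12 h (1.47), and went from 752 and 854 to 1629 and 1408 at 12 h of serum (0.92). Spdl1 and Zw10 were the upper and lower ends of this set in the E2F1 line. Kntc1 and Zwilch lay between them at 2.01 and 1.97.

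The passenger complex moved together. Its 4 genes rose by log2 changes of 2.24 to 2.94 at 12 h in the E2F1 line and 1.02 to 1.42 at 12 h of serum, and all 4 differences were called (0.90 to 1.51). The calls of the Incenp and Birc5 differences rest on single libraries. Over the alternatives run these differences ran from 0.50 to 1.31 and from 0.77 to 1.49, and that of Aurkb from 1.05 to 1.98. Aurkb, the kinase Aurora B, had 1220 and 1071 normalized counts at E2F1 0 h, 2095 and 1682 at 6 h and 8574 and 8949 at 12 h, a log2 change of 2.94 (SE 0.30). In the EV line Aurkb went from 649 and 1242 at 0 h to 289 and 373 at 12 h of doxycycline and 2579 and 2248 at 12 h of serum. Incenp, the scaffold of the complex, had 2853 and 2716 at E2F1 0 h and 13236 and 13037 at 12 h (2.24), and 1586 and 2772 at EV 0 h against 5607 and 4990 at 12 h of serum (1.33). Birc5 (survivin) had 1411 and 1417 at E2F1 0 h and 7438 and 7487 at 12 h (2.40), and 854 and 1355 at EV 0 h against 2759 and 2542 at 12 h of serum (1.30). In each of these 3 genes the 12 h libraries of either stimulus lay above the 0 h libraries of the same line. At E2F1 6 h Incenp alone of the 4 was called (0.63, adjusted p 0.0395), with the other 3 estimates at 0.57 to 0.72.

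Shugoshins guard centromeric cohesin until anaphase. Sgo2a had 382 and 301 normalized counts at E2F1 0 h, 608 and 670 at 6 h and 1865 and 1990 at 12 h (2.50), and went from 128 and 324 to 493 and 387 at 12 h of serum (1.10). Sgo1 had 710 and 631 at E2F1 0 h, 1268 and 1136 at 6 h and 3079 and 3013 at 12 h (2.18), and went from 353 and 790 to 1237 and 924 at 12 h of serum (1.02). Both were called at 12 h under either stimulus, and the difference was called for Sgo2a (1.41, adjusted p 0.0224) and not for Sgo1 (1.17, adjusted p 0.068).

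In the SKA complex, which holds NDC80 on shortening microtubules, Ska1 had 342 and 375 normalized counts at E2F1 0 h, 695 and 559 at 6 h and 2584 and 2777 at 12 h (2.90). Under serum Ska1 went from 170 and 296 at EV 0 h to 108 and 79 at 2 h and 680 and 510 at 12 h (1.39). Ska2 had 968 and 915 at E2F1 0 h, 1458 and 1286 at 6 h and 2256 and 2248 at 12 h (1.26). Its fall at 2 h of serum, from 771 and 881 to 321 and 370 (-1.26, adjusted p 1.26e-07), was over by 6 h, when it had 817 and 949. Ska3 rose by 2.46 and 1.39 at 12 h of the 2 stimuli.

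The 2 stimuli were then compared directly on the change from 0 h. E2F1 was induced in the E2F1 line with doxycycline, and serum was given to the EV line without it. Stimulus, line and doxycycline cannot be told apart in these differences. The lines also differed at the start. At 0 h 13 of a list of 16 G1/S genes were called higher in the E2F1 line (median log2 difference 0.69), with 8.86% of all genes, and the median of the members was 0.35. At 6 h the change was larger under E2F1 for 34 members and larger under serum for 1, Zwint, where 30.3% and 27.6% of all genes were called in those directions. At that time 10 members were called higher under E2F1, lower under serum and different between them, where 6.09% of all genes were: Ndc80, Spc25, Knl1, Cenpk, Cenpn, Cenpq, Hjurp, Oip5, Kntc1 and Ska1. Except for Cenpk and Hjurp, their serum 6 h calls rest on EV 0 h replicate 2 and on EV serum 6 h replicate 1. At 12 h the change was larger under E2F1 for 28 members and smaller for Zwint, where 25.0% and 23.8% of all genes were called, with a median difference of 0.93. Without EV 0 h replicate 2 17 members were called. With the 12 h groups set against each other and the 0 h libraries left out, an alternative added after the data were seen, 42 members were higher under E2F1 and Zwint lower, where 33.4% and 30.4% of all genes were. By their calls at E2F1 6 h and serum 12 h the 48 genes fell into 23 called higher in both (16.9% of all genes), 15 called higher at serum 12 h and not called at E2F1 6 h (15.0%), 4 with the reverse (Ndc80, Cenpc1, Cenpl and Hjurp; 897 of the 11208 genes tested), 5 called in neither (Cenpp, Cenpt, Cenpe, Cenpf and Bub1b; 19.2%), and Cenpa, lower at serum 12 h and not called at E2F1 6 h (14.1%). Cenpa was also the single member called higher at E2F1 12 h, lower at serum 12 h and different between them, where 3.52% of all genes were. The groups by serum call depend on the reference. Against EV doxycycline 12 h, Ndc80, Cenpl, Hjurp, Cenpe and Bub1b were called higher at serum 12 h too.

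**Figure D4:**
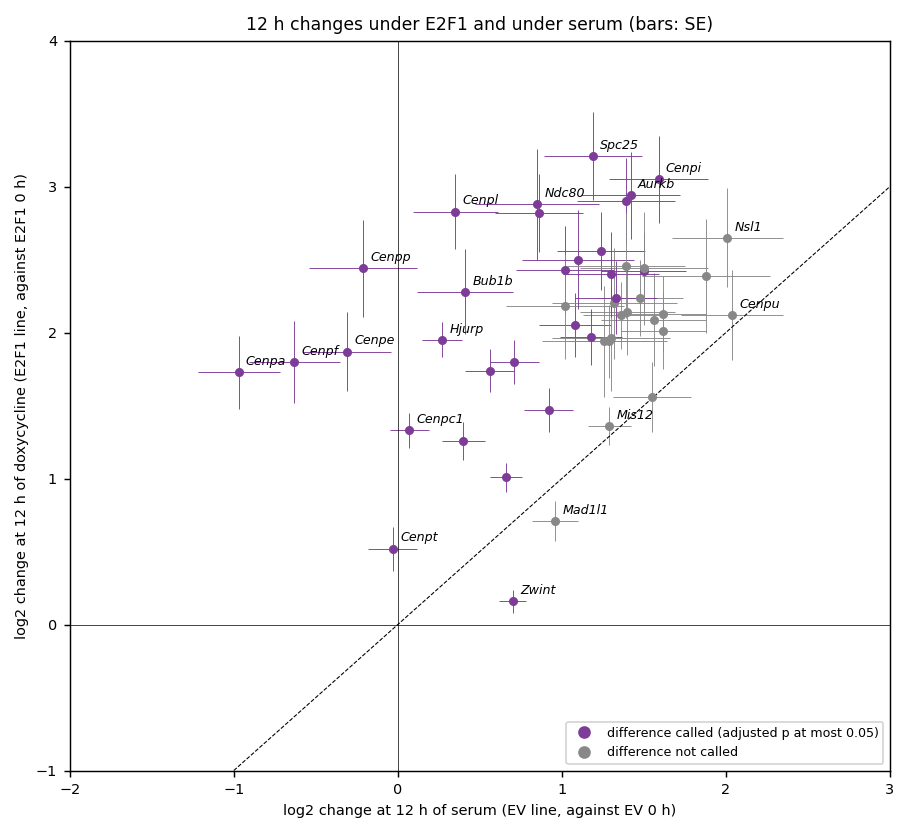
Log2 change at 12 h of doxycycline in the E2F1 line (vertical, against E2F1 0 h) and at 12 h of serum in the EV line (horizontal, against EV 0 h) for the 48 genes, with SE bars; purple marks a called difference and the dashed line marks equal change. Cenpa, Cenpf, Cenpe and Cenpp lie left of 0 on the serum axis and near 2 on the E2F1 axis, and Zwint is the gene well below the dashed line.

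Set beside reference lists, the members stood between G1/S and G2/M genes at E2F1 6 h and at serum 12 h. Of 16 G1/S genes 16 were called higher at E2F1 6 h and 16 at serum 12 h, with median log2 changes of 1.60 and 2.38. Of 16 G2/M genes 4 were called higher at E2F1 6 h, 16 at E2F1 12 h (median 1.96) and 3 at serum 12 h (median 0.03). Of all genes 28.8% were called higher at E2F1 6 h, 31.8% at E2F1 12 h and 36.0% at serum 12 h. The members' medians at these 3 points were 0.67, 2.13 and 1.21. Over the 11 group means 32 members correlated better with the G2/M list and 16 with the G1/S list, although the lists themselves correlate at r = 0.77 and share libraries with the members, so this is a description. By the difference of the 2 correlations Cenpa (r = 0.53 with G1/S, 0.91 with G2/M), Cenpf (0.61, 0.93) and Cenpe (0.67, 0.97) leaned furthest to the G2/M list. Their r with that list was not the highest of the members, which was 0.98 for Cenpt. Zwint leaned furthest to the G1/S list by that difference but was like neither list (0.04, -0.27). Mis12 (0.86, 0.66), Bub3 (0.59, 0.46), Mad1l1 (0.78, 0.66) and Cenpu (0.94, 0.85) came next. The split of 32 and 16 counts near ties such as Cenph (0.87, 0.87).

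**Figure D5:**
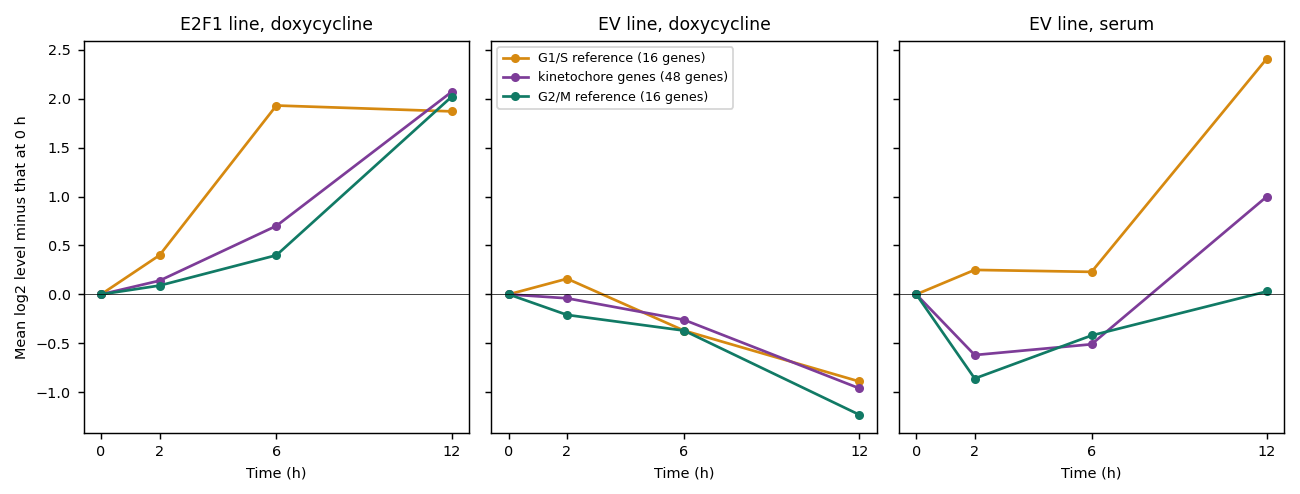
Mean log2 level of the 16 G1/S genes, the 48 kinetochore genes and the 16 G2/M genes minus that at 0 h, against time in h, in the E2F1 line with doxycycline, the EV line with doxycycline and the EV line with serum. The kinetochore genes run between the references at 6 h of E2F1 and at 12 h of serum, and all 3 lists are lower at 12 h in the EV line under doxycycline.

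A further 22 genes of the kinetochore and its regulators lay outside the 48. Of these 10 were called higher and 2 lower at E2F1 6 h, 18 higher and 1 lower at E2F1 12 h (median 1.23), and 9 higher and 2 lower at serum 12 h (median 0.28). Of all genes 28.8%, 31.8% and 36.0% were called higher at these points, and 2569, 3329 and 3328 of the 11208 were called lower. The share called higher at serum 12 h was thus near that of all genes. Haspin, the histone kinase that docks the passenger complex, rose by 2.71 at E2F1 12 h and 2.07 at serum 12 h, and Trip13, which recycles Mad2, by 2.50 and 2.05. Plk1 and Kif2c, a mitotic kinase and a microtubule depolymerase, rose by 2.31 and 2.14 at E2F1 12 h, with values of -0.01 and 0.03 at serum 12 h that were not called. Knstrn (1.94, -0.15) and Cdc20 (1.38, -0.44) had the same form, Plk1 and Cdc20 also being on the G2/M list, and Rsf1 was the gene called lower at both. Itgb3bp was called lower at serum 6 h (-1.56) and higher at E2F1 12 h (0.85). Its value at serum 12 h was -0.55 and was not called.

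The authors' deposited tables list genes past an absolute log2 fold change of 2. They hold 29 members among 510 genes at E2F1 12 h, all higher, from 2.02 for Kntc1 to 3.22 for Spc25. At E2F1 6 h they hold Cenpi alone of the members (2.20) among 264 genes, and at serum 12 h Cenpu (2.06) and Nsl1 (2.04) among 726. At serum 2 h they hold Ndc80 (-2.02) among 1268 genes, and at serum 6 h Cenpp, given above, among 795. No member stands in their EV doxycycline tables.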

How the data were processed

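The 22 libraries of polyadenylated RNA were read in pairs of 150 bp, per the labels' protocols. The submitters' processing notes name FastQC, Trimmomatic, HISAT2, featureCounts, DESeq2 and the build mm10, with no versions or order; the annotation and the use of strand are not given in the sources used here. The main table holds, as the authors deposited it, normalized counts rounded to whole numbers, which were treated as a score and not as raw counts. The authors' deposited comparison tables hold log2 fold changes. They also hold an adjusted p-value per gene as the authors deposited it, and they were used only for the values credited to them.

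Tests used limma 3.58.1 (R 4.3.3) on log2(value + 1). A mean per group was fitted over all 22 libraries (11 residual degrees of freedom, mean-variance trend), with Benjamini-Hochberg adjustment of the p-values over 11208 genes and a threshold of 0.05. The filter, a value of at least 10 in 2 libraries, removed no gene. Fold changes on this scale understate the change of low genes. Groups and replicate numbers come from the labels. The members and lists were chosen with earlier results of these data known. Named members, by the rule written with the lists, are the highest and lowest at E2F1 12 h in each role, the 3 most positive and up to 3 negative E2F1 minus serum differences that passed, and Ndc80, Cenpa, Bub1, Bub1b, Mad2l1, Aurkb and Birc5; other members are given by change and count. On simulated data for E2F1 12 h with 11208 genes, 80 of 91 genes changed by 1 on the log2 scale and 107 of 109 changed by 2 were called in the right direction, with 7 unchanged genes. Promoter windows are from RefSeq on GRCm38.p6 and gene positions from GENCODE M21, in which all 48 identifiers occurred. Alternatives were a pseudocount of 8, no filter, a mean of at least 500, only the groups compared, equal totals, the replicate number as a block, quantile normalization and leaving out each library. Chosen after seeing the data were the comparison of the 12 h groups alone, EV doxycycline 12 h as the serum reference, and leaving out the EV 2 h doxycycline libraries.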

Additional observations from a re-analysis of the deposited data

Results flagged for a closer look

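The response of these genes differed between the lines and between the stimuli, by the test of the difference itself. Serum was given to the EV line without doxycycline, so between E2F1 and serum the stimulus, the line and doxycycline cannot be told apart. Under doxycycline the change from 0 h differed between the E2F1 and EV lines for 25 of the 48 genes at 6 h (52.1%, against 34.5% of all genes) and for 47 at 12 h (97.9%, against 50.5%), each time with the larger value in the E2F1 line. Between E2F1 and serum it differed for 35 genes at 6 h (72.9%, against 57.9% of all genes) and for 29 at 12 h (60.4%, against 48.8%), and Zwint was the single gene with the larger value under serum at either time. At 6 h 10 genes were called higher under E2F1, lower under serum and different between them, as were 6.09% of all genes. They include Ndc80 (1.17 and -1.21 on the log2 scale), Oip5 (1.17 and -1.53) and Knl1 (1.18 and -0.84). The serum 6 h calls of these named genes rest on single libraries, as do the E2F1 6 h calls of Ndc80 and Oip5. Over the alternatives run their serum 6 h values ran from -1.73 to -0.69, -2.21 to -0.77 and -1.30 to -0.38. With quantile normalization Spc25, Cenpk, Cenpn, Cenpq, Oip5 and Ska1 lost the serum 6 h call, and Kntc1 lost the E2F1 6 h call. At 12 h 1 gene, Cenpa (1.73 and -0.97), was called higher under E2F1, lower under serum and different, as were 3.52% of all genes. The serum values rest on the EV 0 h libraries, whose members differed by a median of 0.79 between replicates. Without EV 0 h replicate 2, 17 genes differed between the stimuli at 12 h.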

How the results depend on the processing

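The counts of members called at E2F1 12 h and for E2F1 against EV doxycycline at 12 h were 46 or 47 under every alternative run except a mean of at least 500, which left 37 members in the test and called 36 of them in both comparisons. The results that depend on the processing are those taken from EV 0 h and the first steps. With equal totals 33 members were called at serum 6 h, 4 between the lines at 0 h and 1 at EV doxycycline 2 h. With quantile normalization 16 were called at serum 2 h and 1 at EV doxycycline 2 h, and a mean of at least 500 also gave 1 there. With only the groups compared 1 was called at EV doxycycline 12 h and 1 between the lines. Leaving out each library in turn, with the lone library assumed to vary like the other groups, gave 10 to 19 at E2F1 6 h, 0 to 36 at EV doxycycline 12 h, 16 to 37 at serum 2 h, 8 to 37 at serum 6 h, 29 to 43 at serum 12 h and 0 to 12 between the lines. The differences gave 5 to 39 for E2F1 against EV at 6 h, 24 to 40 for E2F1 against serum at 6 h and 17 to 35 at 12 h. The cause was not tested.

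The replicate numbers were also fitted as a block. The replicate block gave 1 member at EV doxycycline 2 h, 31 at E2F1 6 h, 29 at EV doxycycline 12 h and 47 at E2F1 12 h, and moved no count of members by over 1.5 times except the first. The replicate differences of same-numbered libraries correlated at -0.28 to 0.45 between groups over the 55 pairs of groups. In 18 pairs r was above 0.1, the highest being 0.45 between EV 0 h and EV doxycycline 6 h. Since not every pair was above 0.1 and the labels name nothing that same-numbered libraries share, the numbers were not taken to pair the libraries. That rule, like the block with its 1 shift for all groups, cannot decide on a pairing within 1 line. EV doxycycline 12 h had r of 0.31 with EV 0 h and 0.30 with EV 6 h, and E2F1 0 and 6 h had 0.36. Pairs of 2 and 6 h had -0.16 in the EV line under doxycycline and -0.28 in the E2F1 line. Pairing within a line was not tested.

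Of 110 called results of named members, 1256 of 1421 alternatives kept the direction and the call, 164 kept the direction only and 1 turned: Cenpa at serum 12 h was 0.33 against EV doxycycline 12 h. The other turns are of log2 values that were not called. Against EV doxycycline 12 h the serum values were 0.34 for Cenpt, 0.76 for Cenpe, 0.55 for Cenpf and 0.61 for Cenpp. Quantile normalization gave -0.03 for Zwint at E2F1 12 h, -0.09 for Cenpa at E2F1 6 h, 0.18 for Cenpp at serum 12 h, and at serum 6 h 0.08 for Cenpi, 0.03 for Sgo2a and 0.23 for Cenpl. Equal totals gave -0.00 for Cenpa at E2F1 6 h and -0.12 for both Spdl1 and Ska2 at serum 6 h. Leaving out single libraries gave, at serum 6 h, -1.01 to 0.06 for Nsl1, -0.74 to 0.38 for Cenpi, -0.40 to 0.60 for Spdl1, -0.76 to 0.04 for Incenp, -1.06 to 0.28 for Sgo2a, -1.10 to 0.06 for Sgo1, -0.01 to 0.20 for Ska2, -0.49 to 0.21 for Cenpl, -1.08 to 0.17 for Bub1 and -0.67 to 0.23 for Mad2l1. At serum 12 h it gave -0.11 to 0.05 for Cenpt, -0.69 to 0.07 for Cenpe, -0.06 to 0.89 for Bub1b, -0.62 to 0.21 for Cenpp and -0.00 to 0.70 for Cenpl. At E2F1 6 h it gave -0.21 to 0.14 for Cenpt and -0.00 to 0.23 for Cenpa, at EV doxycycline 12 h -0.07 to 0.01 for Zwint and -0.45 to 0.03 for Mis12, and -0.04 to 0.19 for Mis12 in the 12 h difference.

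Over all genes, fits with only the groups compared called 596 at E2F1 2 h (208 with all groups), 400 at EV doxycycline 2 h (824), 1 at EV doxycycline 6 h (15), 77 at EV doxycycline 12 h (467) and 652 between the lines (1684), and quantile normalization called 330 at E2F1 2 h. Equal totals moved the median of all genes to -0.34 at serum 2 h, -0.18 at serum 6 h and -0.15 at E2F1 6 h. The split of higher and lower calls then went from 4200 and 3752 to 2611 and 5907 at serum 2 h, from 4093 and 3470 to 2914 and 4772 at serum 6 h, and from 3230 and 2569 to 2684 and 3781 at E2F1 6 h. Precision is limited by the 2 libraries per group, and depth was recovered for 9 of the 22 libraries only.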

Other observations

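With the EV line at 12 h of doxycycline as the reference for serum at 12 h, a comparison added after the data were seen, the median log2 difference of the 48 genes was 2.27. The 5 genes not called were Cenpa (0.33), Cenpf (0.55), Cenpp (0.61), Cenpt (0.34) and Cenpc1 (0.15). With E2F1 12 h set against serum 12 h, the 5 genes not called were Spc24, Cenpu, Cenpw, Bub3 and Mad1l1.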
